A study of Homo sapiens with 18 samples.

Results

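The 9 genes described here encode the 7 protein inhibitors of cyclin-dependent kinases (CDKs) of the Cip/Kip and INK4 families, and SKP2 and CKS1B, which act together in a ubiquitin ligase that marks p27 for destruction. They were chosen by name: the rows of the deposited count table whose gene was CDKN1A, CDKN1B, CDKN1C, CDKN2A, CDKN2B, CDKN2C, CDKN2D, SKP2 or CKS1B were taken, 9 of the 58037 genes listed, in all 6 groups of samples. RNA was measured in LNCaP, an established human prostate cancer line that carries the androgen receptor and grows in response to androgen. Before transfection the cells were placed in medium with 9% charcoal-stripped serum, a serum depleted of steroids. A lipid reagent was used to deliver 1 of 3 SmartPools, mixtures of siRNAs: one against E2F2, one against E2F1, and a non-targeting pool as control. The treatment began 42 h after transfection by the series' design text and 48 h after it by the sample protocol, and lasted 48 h.

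The 6 groups were therefore E2F2 siRNA with R1881, E2F1 siRNA with R1881, control siRNA with R1881, E2F2 siRNA with ethanol vehicle, E2F1 siRNA with vehicle, and control siRNA with vehicle, with 3 biological replicates each and 18 libraries in all. R1881 is a synthetic androgen that cells metabolise slowly, given here at 0.1 nM. All groups shared the steroid-depleted medium, the transfection and the cell line, and knockdown was transient and partial. Libraries were made with an exome capture kit, so a transcript was measured through the probes that cover it.

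E2F transcription factors drive the genes that carry a cell from G1 into S phase. They are held in check by RB1, which CDKs inactivate by phosphorylation. The INK4 proteins (p16 from CDKN2A, p15 from CDKN2B, p18 from CDKN2C and p19 from CDKN2D) block CDK4 and CDK6, while the Cip/Kip proteins (p21 from CDKN1A, p27 from CDKN1B and p57 from CDKN1C) bind cyclin-CDK complexes more broadly. SKP2 is the substrate receptor of an SCF ubiquitin ligase that recognises phosphorylated p27, and CKS1B is the small cofactor it needs for this. In prostate epithelium p27 is known for being regulated largely at the level of protein stability, which RNA counts do not measure.

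Each library held between 10930204 and 14819879 counts, and 15185 genes, all 9 described here among them, passed the filter on low counts. Values below are in CPM, a gene's count relative to the scaled size of its library. Fold changes, with their standard errors (SE), and adjusted p-values come from edgeR's quasi-likelihood test over those 15185 genes with Benjamini-Hochberg adjustment, and a gene is said to rise or fall where that p was under 0.05. A value written with ± and followed by an adjusted p is a log2 fold change with its SE. E2F2 RNA was 0.0836 to 0.416 CPM with E2F2 siRNA and 2.36 to 4.59 CPM with control siRNA in R1881 (-4.05 ± 0.54, adjusted p = 3.73e-05), on 1 to 5 and 33 to 53 counts. E2F1 RNA was 8.69 to 10.3 CPM with E2F1 siRNA and 68.6 to 81.2 CPM with control siRNA in R1881 (-2.94 ± 0.17, adjusted p = 2.50e-07). In vehicle each pool also lowered its target, E2F2 by E2F2 siRNA (-4.14 ± 0.63, adjusted p = 0.000150) and E2F1 by E2F1 siRNA (-2.45 ± 0.17, adjusted p = 5.11e-07). E2F2 siRNA also lowered E2F1 RNA, with R1881 (-1.62 ± 0.16, adjusted p = 1.69e-06) and with vehicle (-1.57 ± 0.16, adjusted p = 3.71e-06), so cells given the E2F2 pool were low in both. Their E2F1 RNA was less reduced than with E2F1 siRNA. E2F2 siRNA against E2F1 siRNA gave 1.32 ± 0.17, adjusted p = 3.41e-05, for E2F1 RNA in R1881 and 0.88 ± 0.17, adjusted p = 0.00115, in vehicle. Loss of a target and other effects of its pool cannot be told apart here. E2F2 RNA with E2F1 siRNA was 1.15 to 1.68 CPM in R1881 (-1.22 ± 0.38, adjusted p = 0.0586), below all 3 control siRNA libraries, and gave -0.29 ± 0.38, adjusted p = 0.817, in vehicle. Replicate 3 stood apart: the chi-square per degree of freedom between replicates 1 and 2 of a group was 1.79 to 4.42, and that between either and replicate 3 was 7.98 to 92.5. Luminal prostate markers summed to 5188 to 6791 CPM a library over 9 genes, of which KRT19 was the lowest, at 0.796 to 16.5 CPM. All 5 immune and 3 of 4 basal markers were under 1 CPM in every library.

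Promoter sequence is shown for 4 of the 6 members that changed with E2F2 siRNA in both treatments: CDKN1A, which rose the most, CDKN2C, whose window shown is the only member window with an E2F core, and the ligase genes SKP2 and CKS1B. Each line is the 250 bases upstream of a RefSeq transcription start (assembly GRCh38.p14), written 5′ to 3′ on the gene's strand. The windows are chr6:36678464-36678713, chr1:50968456-50968705, chr5:36151861-36152110 and chr1:154974431-154974680, all on the plus strand. The CDKN1A and CDKN2C windows lie within the span of the gene in GENCODE 29, upstream of starts that are not the outermost, and the SKP2 and CKS1B windows reach into that span. Capitals mark matches on either strand to GGGCGG (an Sp1 box), TTCCCGC or TTGGCGC (E2F cores), and TTTGAA (the cell cycle homology region, CHR).
CDKN1A: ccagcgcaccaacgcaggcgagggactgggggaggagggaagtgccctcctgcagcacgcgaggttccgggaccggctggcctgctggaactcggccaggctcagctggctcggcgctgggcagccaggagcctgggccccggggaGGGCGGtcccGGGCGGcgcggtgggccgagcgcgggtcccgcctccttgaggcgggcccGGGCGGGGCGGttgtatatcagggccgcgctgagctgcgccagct
CDKN2C: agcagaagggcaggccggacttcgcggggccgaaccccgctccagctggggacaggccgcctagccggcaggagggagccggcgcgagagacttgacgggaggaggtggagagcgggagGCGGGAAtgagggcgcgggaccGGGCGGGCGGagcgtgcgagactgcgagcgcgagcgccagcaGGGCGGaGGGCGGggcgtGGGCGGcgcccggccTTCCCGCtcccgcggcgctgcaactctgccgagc
SKP2: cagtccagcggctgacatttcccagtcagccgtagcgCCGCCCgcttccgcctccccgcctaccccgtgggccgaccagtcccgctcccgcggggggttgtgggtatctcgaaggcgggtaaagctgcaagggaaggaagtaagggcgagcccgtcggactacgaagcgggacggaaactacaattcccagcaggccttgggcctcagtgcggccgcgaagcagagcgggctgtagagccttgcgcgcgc
CKS1B: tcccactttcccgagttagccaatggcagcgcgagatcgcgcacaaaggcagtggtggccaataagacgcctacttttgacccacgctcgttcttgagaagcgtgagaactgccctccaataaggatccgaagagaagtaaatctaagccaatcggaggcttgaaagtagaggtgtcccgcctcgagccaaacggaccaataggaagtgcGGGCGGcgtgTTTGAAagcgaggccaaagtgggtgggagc
RefSeq windows were found for 8 of the 9 genes, 11 windows in all, and none for CDKN1C. The longer E2F motifs TTTCCCGC, TTTGGCGC, TTTCGCGC and TTTGCCGC, searched first, were in 0 of the 11 windows, against 2.79% of 35116 windows of all genes. The shorter motifs were added after that result was seen. An E2F core was in the CDKN2C window shown and in no other member window, against 7.81% of all windows. The Sp1 box was in 9 of the 11 windows, and 42.6% of all windows hold it. In the CDKN1A window it occurred 4 times, at -104, -94, -45 and -40 from the start, and only the boxes at -45 and -40 overlapped. A CHR was in the CKS1B window alone among the members, against 13.3% of all windows. These are matches of letters and not sites of binding.

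E2F2 siRNA changed most of the 9 genes, in both directions. With R1881, CDKN1A and CDKN2B rose and CDKN2A, CDKN2C, CDKN2D, SKP2 and CKS1B fell, so 7 of 9 genes were called where 30.3% of all genes tested were. With vehicle, CDKN1A and CDKN2B rose and CDKN2A, CDKN2C, SKP2 and CKS1B fell, 6 of 9 against 27.3% of all genes. CDKN1A moved farthest, 4.04-fold higher in E2F2 siRNA cells with R1881 and 5.62-fold higher with vehicle. The median log2 fold change of the 9 genes was -0.51 with R1881 and -0.13 with vehicle, beside 0.03 and 0.02 over all genes tested.

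E2F1 siRNA gave 5 calls with R1881 and 3 with vehicle, all but 1 of them falls. With R1881, CDKN2B rose and CDKN2C, CDKN2D, SKP2 and CKS1B fell, 5 of 9 against 9.34% of all genes. With vehicle, CDKN1C, CDKN2C and CDKN2D fell and none rose, 3 of 9 against 5.28% of all genes. The INK4 genes CDKN2C and CDKN2D fell in both treatments, whereas SKP2 and CKS1B fell with R1881 and did not pass the test with vehicle. The median log2 fold change of the 9 genes was -0.24 with R1881 and -0.10 with vehicle, beside -0.01 and 0.01 over all genes tested.

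**Figure D1:**
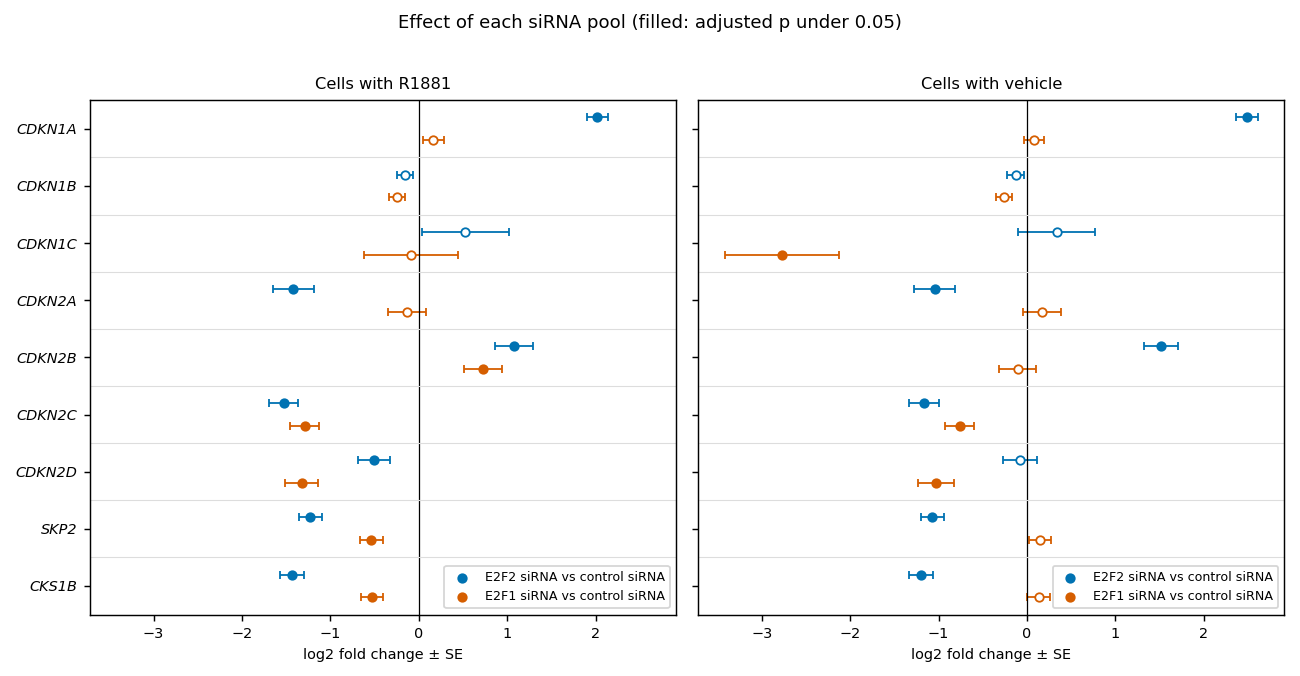
Log2 fold change ± SE of each gene with E2F2 siRNA (blue) and E2F1 siRNA (orange), each against control siRNA, in cells with R1881 (left) and with vehicle (right); filled points had an adjusted p under 0.05. CDKN1A lies at 2.02 and 2.49 with E2F2 siRNA and near 0 with E2F1 siRNA, while CDKN2C lies below 0 in all 4 comparisons.

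R1881 itself, in cells with control siRNA, lowered CDKN1A and raised CDKN2C, CDKN2D, SKP2 and CKS1B, 5 of 9 against 27.0% of all genes tested. With E2F2 siRNA CDKN1A and CDKN2B fell and SKP2 and CKS1B rose with R1881, 4 of 9 against 22.8% of all genes. With E2F1 siRNA CDKN1A fell and no other member was called, 1 of 9 against 19.8% of all genes. These comparisons share groups with those of the siRNA pools (the control siRNA group with R1881, for example, is in the R1881 and the siRNA contrasts), so they are not independent of each other. Markers of other cell types also moved with R1881. The 4 basal genes summed to 2.16 to 2.79 CPM with R1881 and 0.185 to 0.258 CPM with vehicle in E2F2 siRNA cells, 1.56 to 2.12 and 0.00 to 0.220 CPM in E2F1 siRNA cells, and 1.29 to 1.67 and 0.0692 to 0.200 CPM in control siRNA cells. Of these, KRT14 was higher with R1881 in each pool (5.00 ± 0.58, adjusted p = 8.24e-06, with E2F2 siRNA, 3.66 ± 0.50, adjusted p = 4.81e-05, with E2F1 siRNA and 3.20 ± 0.49, adjusted p = 0.000144, with control siRNA). The 7 fibroblast and smooth muscle genes summed to 22.1 to 28.3 CPM with R1881 and 34.8 to 45.0 CPM with vehicle in E2F2 siRNA cells, 13.1 to 14.0 and 19.1 to 21.4 CPM in E2F1 siRNA cells, and 14.6 to 17.8 and 21.3 to 40.1 CPM in control siRNA cells. COL3A1 among them was lower with R1881 in each pool, and COL1A1 passed the test with control siRNA (-0.71 ± 0.21, adjusted p = 0.0200) and in neither other pool. Their part in these results was not tested.

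**Figure D2:**
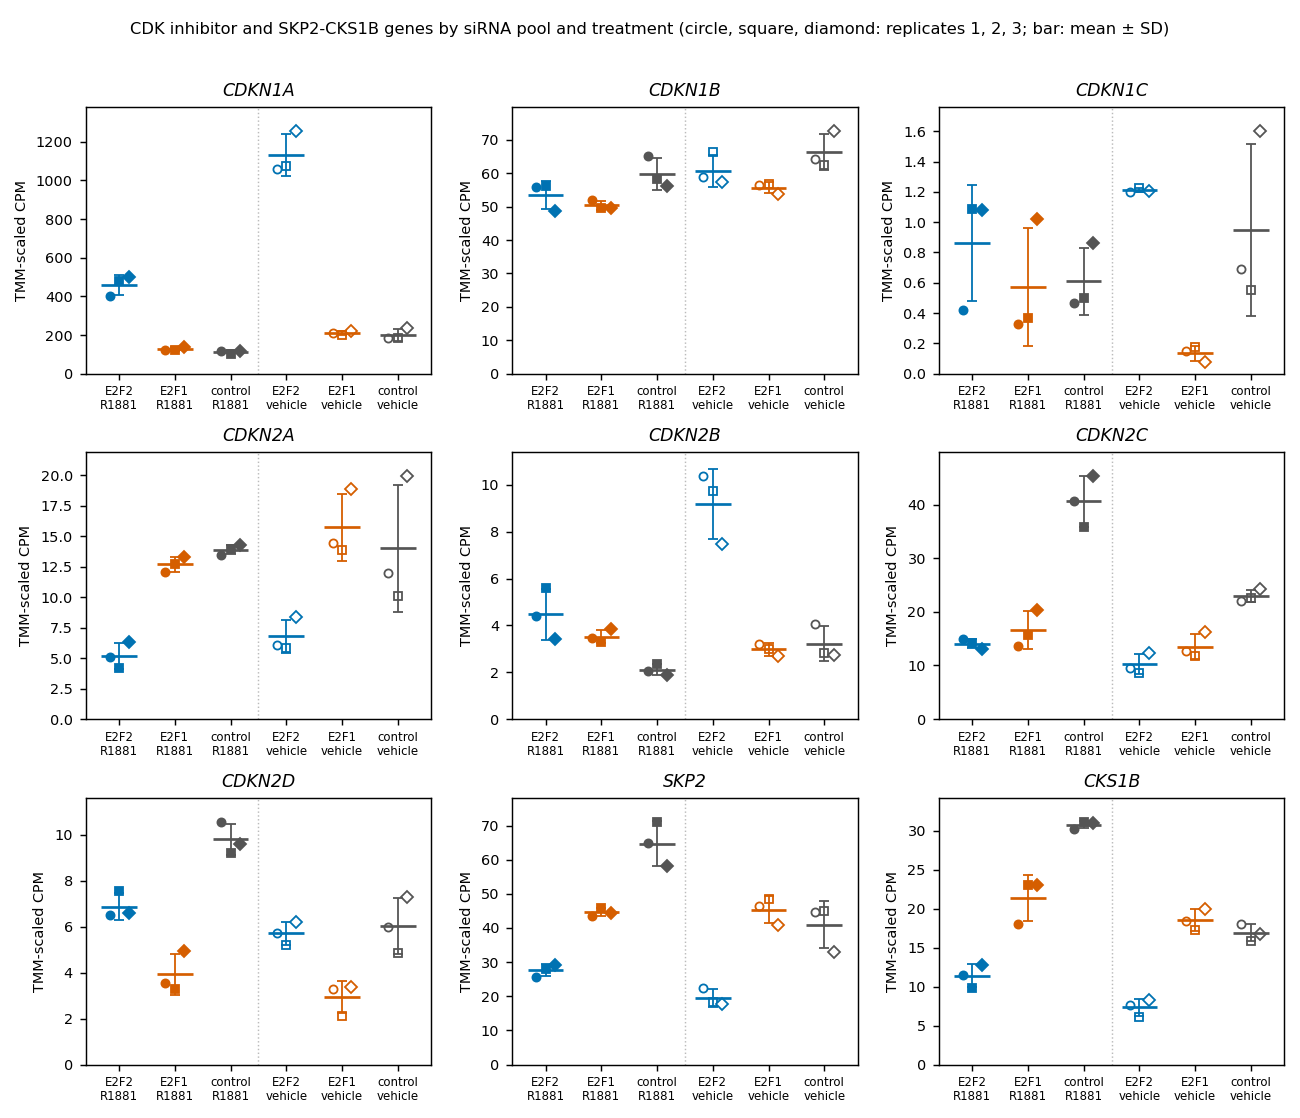
CPM of each gene in each library, by siRNA pool and treatment (R1881 on the left of the dotted line, filled symbols; vehicle on the right, open symbols), with the mean and SD of 3 libraries as bars and each vertical axis starting at 0. CDKN1A is highest in E2F2 siRNA cells with vehicle, at 1060.2, 1075 and 1256 CPM, and CDKN2C, CDKN2D, SKP2 and CKS1B are highest in control siRNA cells with R1881.

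CDKN1A (ENSG00000124762.13, chr6:36676460-36687339, plus strand in GRCh38) encodes p21, an inhibitor that arrests cells in G1. In R1881 CDKN1A was measured at 399, 480.1 and 498 CPM in E2F2 siRNA cells, 121, 121 and 139 CPM in E2F1 siRNA cells and 118, 104 and 119 CPM in control siRNA cells. The E2F2 siRNA libraries were all far above the others, while E2F1 siRNA and control siRNA libraries lay close together without overlapping. In vehicle CDKN1A was 1060.2, 1075 and 1256 CPM in E2F2 siRNA cells, 213, 202 and 222 CPM in E2F1 siRNA cells and 182, 185 and 237 CPM in control siRNA cells. Here too the E2F2 siRNA libraries stood clear of all others, and the E2F1 siRNA and control siRNA libraries overlapped. CDKN1A rose with E2F2 siRNA in R1881 (log2 fold change 2.02 ± 0.12 SE, adjusted p = 1.59e-08) and in vehicle (log2 fold change 2.49 ± 0.12 SE, adjusted p = 3.67e-09). With E2F1 siRNA the log2 fold change was 0.17 ± 0.12, adjusted p = 0.487, in R1881 and 0.08 ± 0.11, adjusted p = 0.846, in vehicle. With the replicate block and a correction for GC content together, the R1881 value was 0.19 with an adjusted p of 0.0288. Over all genes that fit called 4856, beside 1418 as reported. The direct comparison of E2F2 siRNA with E2F1 siRNA was 1.85 ± 0.12, adjusted p = 3.63e-08 in R1881 and 2.41 ± 0.12, adjusted p = 1.64e-09 in vehicle. R1881 lowered CDKN1A with every pool: by 2.46-fold with E2F2 siRNA (log2 fold change -1.30 ± 0.12 SE, adjusted p = 4.70e-07), 1.67-fold with E2F1 siRNA (-0.74 ± 0.12, adjusted p = 0.000184) and 1.77-fold with control siRNA (-0.83 ± 0.12, adjusted p = 5.89e-05). In each pool all 3 R1881 libraries were below all 3 vehicle libraries. The order of the 6 groups, from the highest mean, was E2F2 siRNA with vehicle, E2F2 siRNA with R1881, E2F1 siRNA with vehicle, control siRNA with vehicle, E2F1 siRNA with R1881 and control siRNA with R1881, and only E2F1 siRNA with vehicle and control siRNA with vehicle overlapped as neighbours. Counts were 1373 to 14582 a library. The gene shares 146 exonic bases with DINOL on the opposite strand, and no strand setting of the counting is given in the sources used here, so reads over those bases cannot be told apart.

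Among the lists of markers of other cell types, the summed level of 4 endothelial genes was 21.0 to 24.5 CPM in E2F2 siRNA cells, 7.22 to 11.5 CPM in E2F1 siRNA cells and 16.4 to 18.9 CPM in control siRNA cells with R1881. With vehicle it was 43.1 to 46.0, 6.23 to 7.93 and 13.4 to 17.7 CPM in those pools, so it was highest where CDKN1A was highest. Of the 4 genes, 3 were under 1 CPM in every library, and the fourth, VWF, gave 1.60 ± 0.15, adjusted p = 1.20e-06, with E2F2 siRNA in vehicle and 0.36 ± 0.15, adjusted p = 0.0799, in R1881. VWF fell with E2F1 siRNA, by a log2 fold change of -0.99 in R1881 and -1.09 in vehicle, where CDKN1A did not pass. The fibroblast and smooth muscle list summed to 22.1 to 28.3 CPM in E2F2 siRNA cells and 14.6 to 17.8 CPM in control siRNA cells with R1881, and to 34.8 to 45.0 CPM in E2F2 siRNA cells and 21.3 to 40.1 CPM in control siRNA cells with vehicle, with 4 of 7 genes under 1 CPM in every library. The part of these genes in the CDKN1A result was not tested. In bulk RNA a smaller share of cells expressing a gene and less RNA per cell cannot be told apart, here and for each gene that follows.

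CDKN1B (ENSG00000111276.10, chr12:12715058-12722371, plus strand) encodes p27, the substrate of SKP2. In R1881 CDKN1B was 55.9, 56.1 and 48.6 CPM in E2F2 siRNA cells, 52.0, 49.7 and 49.7 CPM in E2F1 siRNA cells and 65.1, 58.2 and 56.1 CPM in control siRNA cells. In vehicle CDKN1B was 58.8, 66.2 and 57.4 CPM in E2F2 siRNA cells, 56.4, 56.9 and 53.8 CPM in E2F1 siRNA cells and 64.2, 62.6 and 72.7 CPM in control siRNA cells. The 18 libraries spanned a narrow range, and each group overlapped its neighbour in the order of means. CDKN1B passed the test in 0 of the 11 comparisons of the fit as reported. The interval of its log2 fold change with E2F2 siRNA was -0.36 to 0.04 in R1881 and -0.32 to 0.07 in vehicle (95% confidence interval). With E2F1 siRNA all 3 libraries were below all 3 control siRNA libraries in both treatments, at -0.24 ± 0.09, adjusted p = 0.123, in R1881 and -0.26 ± 0.09, adjusted p = 0.146, in vehicle. Without replicate 3 the R1881 value was -0.28 with an adjusted p of 0.00379, and with a correction for GC content the adjusted p was 0.0487 in R1881 and 0.0301 in vehicle. Over all genes the fit without replicate 3 called 4487 in R1881, beside 1418 as reported. The GC correction called 3764 in R1881 and 2507 in vehicle, beside 1418 and 802.

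CDKN1C (ENSG00000129757.12, chr11:2883213-2885773, minus strand), the imprinted gene of p57, was near the limit of detection at 1 to 24 counts a library, 10 of the 18 libraries holding fewer than 10. In vehicle it had 13, 13 and 14 counts in E2F2 siRNA cells, 2, 2 and 1 in E2F1 siRNA cells and 9, 8 and 24 in control siRNA cells. The E2F1 siRNA libraries were the lowest of the 18 and did not overlap the other groups. It fell with E2F1 siRNA in vehicle (log2 fold change -2.77 ± 0.64 SE, adjusted p = 0.0198), and was higher with E2F2 siRNA than with E2F1 siRNA there (3.11 ± 0.64, adjusted p = 0.00154). The call against control siRNA was lost in 6 of 16 alternatives: the adjusted p was 0.0755, 0.0544 and 0.0697 without replicate 1, 2 or 3 of E2F1 siRNA with vehicle, 0.0683 without replicate 3 of control siRNA with vehicle, where the log2 fold change was -2.15, and 0.0714 without all replicates 3, where it was -1.88. With R1881 the counts were 5, 13 and 13 in E2F2 siRNA cells, 4, 5 and 12 in E2F1 siRNA cells and 7, 7 and 10 in control siRNA cells, and these groups overlapped. R1881 against vehicle with E2F1 siRNA gave 2.01 ± 0.72, adjusted p = 0.0628, and an adjusted p of 0.0218 with the replicate number as a block. It was called in 3 of 16 alternatives, and over them the value was as low as 1.07 and the adjusted p as high as 0.340. Over all genes the block called 4661 there, beside 3009 as reported. Where 16 alternatives are given, the fit to the compared groups alone did not test CDKN1C.

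CDKN2A (ENSG00000147889.17, chr9:21967753-21995301, minus strand) encodes p16 and, from another reading frame and first exon, p14ARF, a protein of unrelated sequence. The counts pool both. In R1881 CDKN2A was 5.07, 4.18 and 6.32 CPM in E2F2 siRNA cells, 12.1, 12.7 and 13.3 CPM in E2F1 siRNA cells and 13.5, 13.9 and 14.3 CPM in control siRNA cells. In vehicle CDKN2A was 6.10, 5.85 and 8.36 CPM in E2F2 siRNA cells, 14.4, 13.9 and 18.9 CPM in E2F1 siRNA cells and 12.0, 10.1 and 19.9 CPM in control siRNA cells. Every E2F2 siRNA library was below every library of the other pools, and replicate 3 was the highest library of each group. CDKN2A fell with E2F2 siRNA in R1881 (log2 fold change -1.42 ± 0.23 SE, adjusted p = 0.000248) and in vehicle (log2 fold change -1.04 ± 0.23 SE, adjusted p = 0.00291). The vehicle call was lost in the fit to those 2 groups alone (adjusted p = 0.0628). E2F2 siRNA cells were also lower than E2F1 siRNA cells, at -1.29 ± 0.23, adjusted p = 0.000805, in R1881 and -1.21 ± 0.23, adjusted p = 0.000769, in vehicle. Neither E2F1 siRNA nor R1881 gave a call, with -0.13 ± 0.22, adjusted p = 0.831, for E2F1 siRNA in R1881 and -0.01 ± 0.22, adjusted p = 0.976, for R1881 with control siRNA. Without replicate 3 the R1881 effect with control siRNA was 0.31 (adjusted p = 0.0431), and that of E2F1 siRNA in vehicle was 0.37 (adjusted p = 0.0453, against 0.816 with all libraries). Over all genes that fit called 7205 and 2864 in these 2 comparisons, beside 4105 and 802 as reported. With the GC correction R1881 lowered CDKN2A with E2F2 siRNA (-0.41, adjusted p = 0.0259, against 0.300 without it) and with E2F1 siRNA (-0.29, adjusted p = 0.0482, against 0.402). The correction called 6142 and 5312 of all genes there, beside 3465 and 3009 as reported. CDKN2A shares 341 exonic bases with the antisense gene CDKN2B-AS1, whose reads cannot be told apart there without strand.

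CDKN2B (ENSG00000147883.10, chr9:22002903-22009363, minus strand), the neighbour of CDKN2A on chromosome 9 and the gene of p15, which TGF-beta induces in epithelial cells, moved the other way. In R1881 CDKN2B was 4.39, 5.60 and 3.41 CPM in E2F2 siRNA cells, 3.45, 3.29 and 3.83 CPM in E2F1 siRNA cells and 2.07, 2.36 and 1.90 CPM in control siRNA cells. In vehicle CDKN2B was 10.4, 9.72 and 7.49 CPM in E2F2 siRNA cells, 3.22, 3.01 and 2.69 CPM in E2F1 siRNA cells and 4.07, 2.84 and 2.74 CPM in control siRNA cells. The E2F2 siRNA libraries with vehicle were the highest of all 18, and with R1881 the control siRNA libraries were the lowest. CDKN2B rose with E2F2 siRNA 2.11-fold in R1881 (log2 fold change 1.08 ± 0.21 SE, adjusted p = 0.00118) and 2.86-fold in vehicle (log2 fold change 1.52 ± 0.19 SE, adjusted p = 2.65e-05). It also rose with E2F1 siRNA in R1881 (0.73 ± 0.22, adjusted p = 0.0455), a call that was lost in 11 of 17 alternatives, among them the removal of any 1 of the 6 libraries (adjusted p up to 0.149). In vehicle E2F1 siRNA gave -0.10 ± 0.21, adjusted p = 0.893. R1881 lowered CDKN2B with E2F2 siRNA (-1.04 ± 0.19, adjusted p = 0.000721), and gave -0.59 ± 0.22, adjusted p = 0.0532, with control siRNA, where the replicate block gave an adjusted p of 0.0243. Leaving out replicate 3 of control siRNA with vehicle, or all replicates 3, gave 0.0366 and 0.0371. Over all genes the block and these 2 fits called 6392, 4711 and 7205, beside 4105 as reported. E2F2 siRNA was above E2F1 siRNA in vehicle (1.62 ± 0.20, adjusted p = 1.36e-05), while in R1881 the difference was 0.35 ± 0.20, adjusted p = 0.248, or 0.0380 without replicate 3. Without replicate 3, 6810 of all genes were called between the pools in R1881, beside 3648 as reported.

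CDKN2C (ENSG00000123080.10, chr1:50960745-50974633, plus strand), the gene of p18, fell with both pools. In R1881 CDKN2C was 14.9, 14.2 and 13.1 CPM in E2F2 siRNA cells, 13.6, 15.8 and 20.4 CPM in E2F1 siRNA cells and 40.7, 35.8 and 45.2 CPM in control siRNA cells. In vehicle CDKN2C was 9.62, 8.68 and 12.3 CPM in E2F2 siRNA cells, 12.7, 11.8 and 16.2 CPM in E2F1 siRNA cells and 21.9, 22.6 and 24.3 CPM in control siRNA cells. Every library of either pool was below every control siRNA library of the same treatment, and the libraries of the 2 pools overlapped each other. The fall was 2.88-fold with E2F2 siRNA (log2 fold change -1.53 ± 0.16 SE, adjusted p = 4.02e-06) and 2.45-fold with E2F1 siRNA (-1.29 ± 0.16, adjusted p = 0.000109) in R1881. In vehicle it was 2.25-fold with E2F2 siRNA (-1.17 ± 0.17, adjusted p = 8.24e-05) and 1.69-fold with E2F1 siRNA (-0.76 ± 0.16, adjusted p = 0.0118). This last call was lost without replicate 1 or 2 of E2F1 siRNA with vehicle (adjusted p = 0.0633 and 0.0647) and in the fit to those 2 groups alone (0.190). R1881 raised CDKN2C with control siRNA (log2 fold change 0.82 ± 0.16 SE, adjusted p = 0.00107). With E2F2 siRNA the R1881 effect was 0.46 ± 0.17, adjusted p = 0.0628, with an adjusted p of 0.00918 with the replicate block, 0.0477 by DESeq2 and 0.0236 when replicate 3 of the E2F2 siRNA cells in vehicle was left out, and with E2F1 siRNA it was 0.29 ± 0.17, adjusted p = 0.270. Between the pools the difference was -0.24 ± 0.17, adjusted p = 0.341, in R1881 and -0.41 ± 0.17, adjusted p = 0.0836, in vehicle, the second with an adjusted p of 0.0180 under the block and 0.0302 when that library was left out. Over all genes the block called 5501 for R1881 with E2F2 siRNA, beside 3465 as reported. Between the pools in vehicle it called 6907, beside 4641.

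CDKN2D (ENSG00000129355.6, chr19:10566462-10569059, minus strand), the gene of p19, was lower with E2F1 siRNA than with E2F2 siRNA in both treatments. In R1881 CDKN2D was 6.51, 7.53 and 6.57 CPM in E2F2 siRNA cells, 3.53, 3.29 and 4.94 CPM in E2F1 siRNA cells and 10.6, 9.21 and 9.60 CPM in control siRNA cells. In vehicle CDKN2D was 5.73, 5.19 and 6.20 CPM in E2F2 siRNA cells, 3.30, 2.12 and 3.39 CPM in E2F1 siRNA cells and 5.99, 4.84 and 7.27 CPM in control siRNA cells. The E2F1 siRNA libraries were the lowest of each treatment, and with vehicle E2F2 siRNA overlapped control siRNA. It fell with E2F1 siRNA in R1881 (log2 fold change -1.33 ± 0.19 SE, adjusted p = 0.000330) and in vehicle (log2 fold change -1.03 ± 0.20 SE, adjusted p = 0.00593), the vehicle call being lost in the fit to those 2 groups alone (adjusted p = 0.241). With E2F2 siRNA it fell in R1881 (-0.51 ± 0.18, adjusted p = 0.0441), a call lost in 8 of 17 alternatives, among them the removal of any 1 of the 6 libraries (adjusted p up to 0.136). In vehicle the E2F2 siRNA effect was -0.08 ± 0.19, adjusted p = 0.791. The direct test put E2F2 siRNA above E2F1 siRNA, at 0.81 ± 0.20, adjusted p = 0.00625, in R1881 and 0.95 ± 0.20, adjusted p = 0.00221, in vehicle. R1881 raised CDKN2D with control siRNA (0.70 ± 0.18, adjusted p = 0.00901), or 0.0661 in the fit to those 2 groups alone, and gave 0.27 ± 0.19, adjusted p = 0.372, with E2F2 siRNA and 0.40 ± 0.21, adjusted p = 0.225, with E2F1 siRNA.

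SKP2 (ENSG00000145604.15, chr5:36151989-36184319, plus strand) encodes the substrate receptor itself. In R1881 SKP2 was 25.7, 28.0 and 29.0 CPM in E2F2 siRNA cells, 43.6, 45.9 and 44.3 CPM in E2F1 siRNA cells and 65.0, 71.1 and 58.1 CPM in control siRNA cells. In vehicle SKP2 was 22.4, 18.4 and 17.7 CPM in E2F2 siRNA cells, 46.5, 48.5 and 40.9 CPM in E2F1 siRNA cells and 44.7, 45.0 and 33.0 CPM in control siRNA cells. With R1881 the 3 pools formed 3 separate ranges, lowest with E2F2 siRNA, whereas with vehicle E2F1 siRNA overlapped control siRNA and E2F2 siRNA alone was lower. SKP2 fell 2.35-fold with E2F2 siRNA in R1881 (log2 fold change -1.23 ± 0.13 SE, adjusted p = 3.40e-06) and 2.10-fold in vehicle (log2 fold change -1.07 ± 0.13 SE, adjusted p = 1.80e-05). With E2F1 siRNA it fell 1.45-fold in R1881 (-0.54 ± 0.13, adjusted p = 0.0135) and gave 0.15 ± 0.13, adjusted p = 0.687, in vehicle. The call with E2F1 siRNA was lost without replicate 1 or 3 of E2F1 siRNA with R1881 or replicate 2 of control siRNA with R1881 (adjusted p = 0.0608, 0.0506 and 0.0699). E2F2 siRNA cells were below E2F1 siRNA cells, at -0.69 ± 0.13, adjusted p = 0.00101, in R1881 and -1.22 ± 0.13, adjusted p = 4.15e-06, in vehicle. R1881 raised SKP2 with E2F2 siRNA (0.50 ± 0.13, adjusted p = 0.0106) and with control siRNA (0.66 ± 0.13, adjusted p = 0.00101), and gave -0.02 ± 0.13, adjusted p = 0.946, with E2F1 siRNA. The call with E2F2 siRNA had an adjusted p of 0.0518 without replicate 3 of E2F2 siRNA with vehicle.

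CKS1B (ENSG00000173207.12, chr1:154974653-154979249, plus strand), the cofactor, followed the same order of groups as SKP2 at both ends. In R1881 CKS1B was 11.5, 9.87 and 12.8 CPM in E2F2 siRNA cells, 18.0, 23.0 and 23.1 CPM in E2F1 siRNA cells and 30.3, 31.1 and 31.0 CPM in control siRNA cells. In vehicle CKS1B was 7.67, 6.13 and 8.27 CPM in E2F2 siRNA cells, 18.4, 17.2 and 20.0 CPM in E2F1 siRNA cells and 18.0, 15.8 and 16.8 CPM in control siRNA cells. Control siRNA with R1881 held the 3 highest libraries and E2F2 siRNA with vehicle the 3 lowest, and E2F1 siRNA overlapped control siRNA with vehicle. CKS1B fell 2.70-fold with E2F2 siRNA in R1881 (log2 fold change -1.43 ± 0.13 SE, adjusted p = 9.07e-07) and 2.29-fold in vehicle (log2 fold change -1.20 ± 0.14 SE, adjusted p = 9.37e-06). With E2F1 siRNA it fell 1.44-fold in R1881 (-0.53 ± 0.13, adjusted p = 0.0152) and gave 0.14 ± 0.13, adjusted p = 0.726, in vehicle. That call was lost without replicate 1 of E2F1 siRNA with R1881 or replicate 2 of control siRNA with R1881 (adjusted p = 0.0946 and 0.0615). Between the pools, E2F2 siRNA was lower at -0.91 ± 0.13, adjusted p = 0.000133, in R1881 and -1.33 ± 0.14, adjusted p = 2.63e-06, in vehicle. R1881 raised CKS1B with E2F2 siRNA (0.63 ± 0.14, adjusted p = 0.00340) and with control siRNA (0.87 ± 0.13, adjusted p = 0.000106), and gave 0.20 ± 0.13, adjusted p = 0.347, with E2F1 siRNA.

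Compared directly, the 2 pools differed for most of the 9 genes. With R1881 CDKN1A and CDKN2D were higher with E2F2 siRNA than with E2F1 siRNA, and CDKN2A, SKP2 and CKS1B were lower, 5 of 9 against 24.0% of all genes tested. With vehicle CDKN1A, CDKN1C, CDKN2B and CDKN2D were higher and CDKN2A, SKP2 and CKS1B lower, 7 of 9 against 30.6%.

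**Figure D3:**
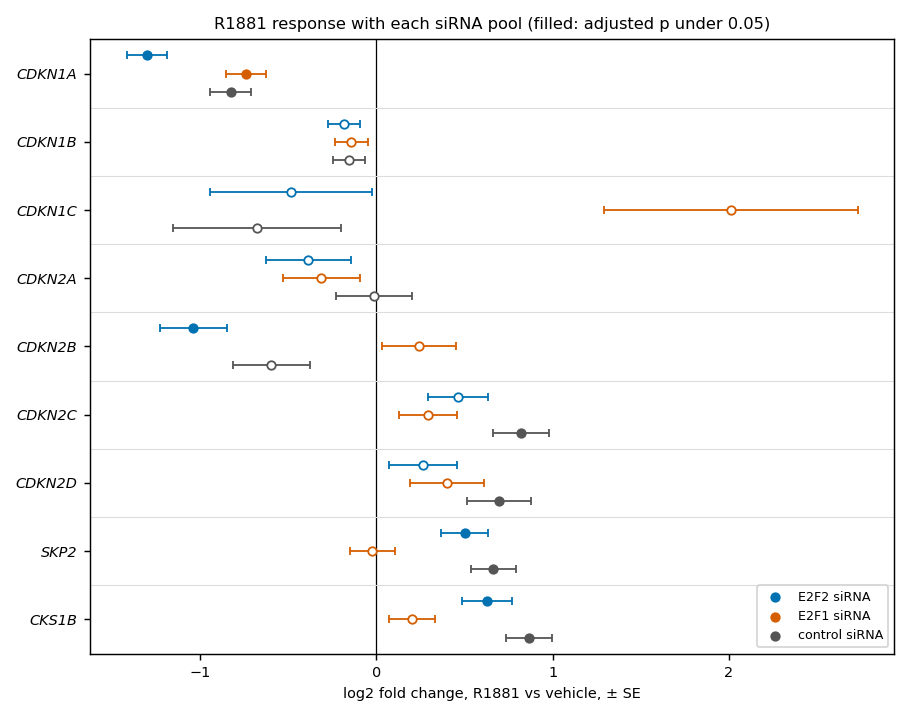
Log2 fold change ± SE of each gene, R1881 against vehicle, in cells with E2F2 siRNA (blue), E2F1 siRNA (orange) and control siRNA (grey); filled points had an adjusted p under 0.05. CDKN1A lies below 0 with every pool, and SKP2 and CKS1B lie near -0.02 and 0.20 with E2F1 siRNA but at 0.66 and 0.87 with control siRNA.

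Whether a pool changed the R1881 response was tested as the difference between responses. No member passed: 0 of 9 for E2F2 siRNA against control siRNA, where 0.889% of all genes were called, and 0 of 9 for E2F1 siRNA against control siRNA, where 0.685% were. At an unadjusted p under 0.05, the counts were 1 of 9 for E2F2 siRNA, beside 10.4% of all genes, and 5 of 9 for E2F1 siRNA, beside 10.2%. DESeq2 gave CDKN1C no adjusted p in either difference. Of the other members it called 0 for E2F2 siRNA, beside 2.26% of the genes to which it gave an adjusted p. For E2F1 siRNA it called 2, SKP2 and CKS1B, beside 2.73% of such genes. Limma-voom called 0 of 9 for either pool, and 0.869% of all genes for E2F2 siRNA and 0.869% for E2F1 siRNA. The R1881 response of SKP2 was lower with E2F1 siRNA than with control siRNA by a log2 difference of -0.68 ± 0.18, adjusted p = 0.100, and that of CKS1B by -0.66 ± 0.18, adjusted p = 0.121. Both passed with the replicate number as a block (adjusted p = 0.0124 for SKP2 and 0.0208 for CKS1B) and in the fit without replicate 3 (9.99e-05 and 0.00727). Over all genes these fits called 696 and 1844 for that difference, beside 104 as reported. For CDKN1A the response with E2F2 siRNA differed from that with control siRNA by -0.47 ± 0.16, adjusted p = 0.241, and it passed with the GC correction (0.00244) and without replicate 3 (0.000158). Those 2 fits called 1104 and 1767 of all genes for the E2F2 siRNA difference, beside 135 as reported. CDKN2A gave -0.37 ± 0.32, adjusted p = 0.833, for E2F2 siRNA and -0.68 (adjusted p = 0.0483) without replicate 3. For 2 members the difference with E2F1 siRNA was positive at an unadjusted p under 0.05: CDKN1C gave 2.69 ± 0.86, adjusted p = 0.209, or an adjusted p of 0.0335 with the GC correction and 0.0215 with the block and that correction, and CDKN2B gave 0.83 ± 0.30, adjusted p = 0.284. Over 22 alternatives the CDKN1C difference was as low as 1.42 and its adjusted p as high as 0.532. CDKN2C gave -0.53 ± 0.23, adjusted p = 0.417, for E2F1 siRNA and an adjusted p of 0.0265 without replicate 3.

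Levels of different genes were set side by side per kilobase of exon (RPKM, from the merged exons of GENCODE 29), with the limit that exome capture probes differ between genes. CDKN1A was the most abundant of the 9 genes in every group and CDKN1B the second, and SKP2 was the third. With R1881, CDKN1A was 151 ± 17.2 RPKM in E2F2 siRNA cells, 41.7 ± 3.36 RPKM in E2F1 siRNA cells and 37.2 ± 2.84 RPKM in control siRNA cells (SD, n = 3 each, as for the values that follow). CDKN1B was 19.0 ± 1.52, 18.0 ± 0.477 and 21.3 ± 1.68 RPKM in the same groups. In the order of the levels, neighbours were separate up to SKP2 in all 6 groups; CKS1B and CDKN2C overlapped in control siRNA cells with either treatment. In E2F2 siRNA cells CKS1B, CDKN2C and CDKN2D formed a run of overlapping neighbours, followed by CDKN2A and CDKN2B, which overlapped each other. CDKN2A overlapped CDKN2D in E2F1 siRNA cells with R1881 and control siRNA cells with vehicle, and CDKN2C in E2F1 siRNA cells with vehicle. CDKN1C was the lowest in every group, at 0.0538 to 0.489 RPKM on average.

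**Figure D4:**
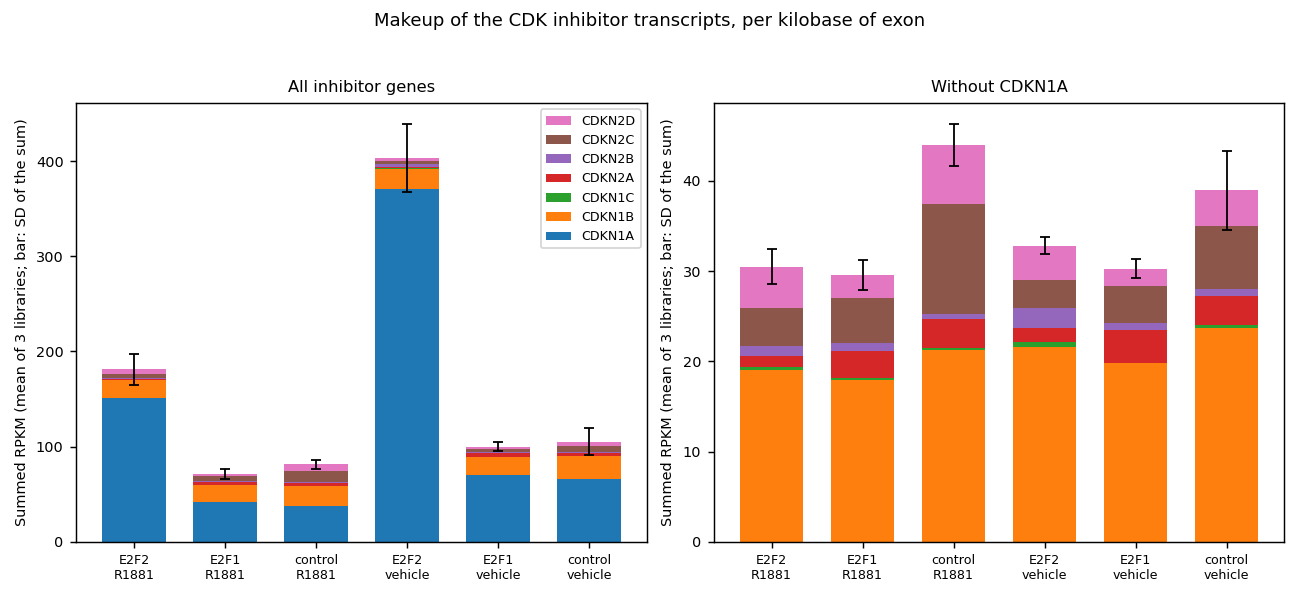
Summed RPKM of the 7 inhibitor genes by group, all genes on the left and without CDKN1A on the right; stacked colours are group means of 3 libraries and the bar is the SD of the sum. CDKN1A makes up 91.8% of the sum in E2F2 siRNA cells with vehicle and 62.8% in control siRNA cells with vehicle.

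CDKN1A made up 83.0% ± 2.20 of the summed RPKM of the 7 inhibitors in E2F2 siRNA cells, 58.5% ± 0.563 in E2F1 siRNA cells and 45.8% ± 1.01 in control siRNA cells with R1881 (SD, n = 3 each). With vehicle it made up 91.8% ± 0.763 in E2F2 siRNA cells, 69.7% ± 0.303 in E2F1 siRNA cells and 62.8% ± 1.19 in control siRNA cells. Its share was thus highest with E2F2 siRNA and lowest with control siRNA in both treatments, and lower with R1881 than with vehicle in each pool. The sum of all 7 was 181 ± 16.5, 71.3 ± 5.04 and 81.2 ± 4.99 RPKM with E2F2, E2F1 and control siRNA in R1881, and 403 ± 35.6, 99.9 ± 4.46 and 105 ± 14.3 RPKM in vehicle. Leaving CDKN1A out, the sum was 30.5 ± 1.91 RPKM with E2F2 siRNA, 29.6 ± 1.69 with E2F1 siRNA and 44.0 ± 2.32 with control siRNA in R1881. In vehicle it was 32.8 ± 0.936, 30.3 ± 1.05 and 39.0 ± 4.38 RPKM in those pools. The mean sum of the other 6 inhibitors was thus below that of control siRNA with either pool, while the mean sum of all 7 was above it with E2F2 siRNA.

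The partners of SKP2 and CKS1B in the ligase were read from a list of 10 genes of the SCF core and of ubiquitin transfer. With E2F2 siRNA 0 rose and 3 fell in R1881, 3 of 10 beside 30.3% of all genes tested, and 1 rose and 3 fell in vehicle, 4 of 10 beside 27.3%. Those that fell in R1881 were CKS2, the paralogue of CKS1B (-1.60 ± 0.10, adjusted p = 3.55e-08), and the ubiquitin-conjugating enzymes CDC34 (-0.74 ± 0.16, adjusted p = 0.00284) and UBE2R2 (-0.47 ± 0.08, adjusted p = 0.000416). CKS2, UBE2R2 and CDC34 were also the 3 that fell in vehicle, where CAND1, which exchanges the receptors of the ligase, rose (0.94 ± 0.34, adjusted p = 0.0475). With E2F1 siRNA, UBE2R2 rose (0.28 ± 0.08, adjusted p = 0.0464) and CKS2 fell (-0.67 ± 0.10, adjusted p = 0.000487) in R1881, 2 of 10 beside 9.34% of all genes, and 0 of 10 were called in vehicle, beside 5.28%. R1881 with control siRNA raised 4 of the 10, CKS2, UBE2M, RBX1 and UBE2R2, and lowered 0, beside 27.0% of all genes. The median log2 fold change of the list was -0.04 with E2F2 siRNA in R1881, beside 0.03 over all genes tested.

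Among 13 genes of other ubiquitin ligases that act on the inhibitors or on SKP2, E2F2 siRNA raised 1 and lowered 6 in R1881 (7 of 13, beside 30.3% of all genes tested), and raised 0 and lowered 4 in vehicle (4 of 13, beside 27.3%). DTL, the receptor of the CRL4 ligase that degrades p21, gave -1.64 ± 0.16, adjusted p = 1.61e-06, in R1881 and -1.68 ± 0.17, adjusted p = 2.11e-06, in vehicle. CDC20, an activator of the anaphase-promoting complex, gave -2.02 ± 0.17, adjusted p = 3.94e-07, in R1881, and ANAPC11, a subunit of it, -0.68 ± 0.13, adjusted p = 0.000882. With E2F1 siRNA the CDC20 and DTL genes fell in R1881, at -0.90 ± 0.16, adjusted p = 0.00223, and -0.66 ± 0.16, adjusted p = 0.0131, 2 of 13 beside 9.34% of all genes, and 0 of 13 were called in vehicle, beside 5.28%. R1881 with control siRNA raised 3, DTL, CDC20 and FBXO5, and lowered 0, beside 27.0% of all genes. The median of the list was -0.20 with E2F2 siRNA in R1881 and -0.28 in vehicle, beside 0.03 and 0.02 over all genes tested.

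Of the cyclins and CDKs of G1 and S phase on which the inhibitors act, with their phosphatases, 14 of 15 listed were tested. E2F2 siRNA raised 1 and lowered 8 in R1881 (9 of 14, beside 30.3% of all genes tested), and raised 3 and lowered 6 in vehicle (9 of 14, beside 27.3%). CDK2, the kinase that p21 and p27 inhibit, fell with E2F2 siRNA in R1881 (-1.01 ± 0.10, adjusted p = 1.16e-06), as did CCNA2, a cyclin of S phase (-1.75 ± 0.17, adjusted p = 1.49e-06), and CDC25A, which activates CDK2 (-1.01 ± 0.10, adjusted p = 1.26e-06). CDK4, the target of the INK4 proteins, gave -0.81 ± 0.09, adjusted p = 3.59e-06, in R1881 and -0.78 ± 0.09, adjusted p = 6.07e-06, in vehicle. E2F1 siRNA raised 0 and lowered 8 in R1881, CDC25A (-1.04 ± 0.10, adjusted p = 7.88e-06) and CDK2 (-0.61 ± 0.09, adjusted p = 0.000590) among them (8 of 14, beside 9.34% of all genes), and raised 0 and lowered 2, CDC25A and CCND1, in vehicle (2 of 14, beside 5.28%). With control siRNA R1881 raised 7 and lowered 0, 7 of 14 beside 27.0% of all genes. The R1881 response of CDK2 differed between E2F1 siRNA and control siRNA (-0.71 ± 0.13, adjusted p = 0.0209), the 1 call in this list for that difference, where 0.685% of all genes were called. The median of the list was -0.74 with E2F2 siRNA and -0.48 with E2F1 siRNA in R1881, beside 0.03 and -0.01 over all genes tested.

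Among 28 tested regulators of transcription of the inhibitors and SKP2, of 29 listed, E2F2 siRNA raised 5 and lowered 10 in R1881 (15 of 28, beside 30.3% of all genes tested), and raised 7 and lowered 7 in vehicle (14 of 28, beside 27.3%). FOXM1, an activator of SKP2 and CKS1B, gave -1.90 ± 0.17, adjusted p = 8.72e-07, in R1881 and -1.87 ± 0.18, adjusted p = 1.22e-06, in vehicle. FOXO3, an activator of CDKN1B, gave 0.63 ± 0.07, adjusted p = 9.96e-06, in R1881 and 0.27 ± 0.07, adjusted p = 0.0132, in vehicle. E2F7 and E2F8, repressors of the E2F family, gave -1.95 ± 0.16, adjusted p = 3.83e-07, and -1.93 ± 0.17, adjusted p = 4.83e-07, in R1881. E2F1 siRNA raised 2 and lowered 5 in R1881, E2F7 (-1.36 ± 0.16, adjusted p = 5.85e-05) and EZH2, which silences CDKN2A (-0.76 ± 0.13, adjusted p = 0.00171), among them (7 of 28, beside 9.34% of all genes), and raised 0 and lowered 1, FOXO3, in vehicle (1 of 28, beside 5.28%). With control siRNA R1881 raised 6 and lowered 8, 14 of 28 beside 27.0% of all genes. The median of the list was -0.22 with E2F2 siRNA in R1881 and -0.19 in vehicle, beside 0.03 and 0.02 over all genes tested.

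The genes whose log2 CPM across the 18 libraries was most like that of each member were ranked by Pearson's r, as a description, since libraries of a group share their treatment and pool and replicates 3 share a shift. For CDKN1A they were MYO1D (r = 0.988), KIF16B (r = 0.975) and SQSTM1 (r = 0.974), of which 2 were again among the first 3 without replicate 3. For SKP2 they were CDCA7 (r = 0.983), SHCBP1 (r = 0.978) and CHEK1 (r = 0.976), and 0 of these returned without replicate 3. For CKS1B they were KIF24 (r = 0.986), ORC6 (r = 0.986) and MTHFD1 (r = 0.985), with 1 returning. CDKN2C was most like NCAPD2 (r = 0.959) and CDKN2A most like SETDB1 (r = 0.976), and in both lists 0 of 3 returned without replicate 3. CDKN2B was most like TERF2IP (r = 0.942), with 1 of 3 returning. CDKN1B, CDKN1C and CDKN2D had no gene above 0.911.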

How the data were processed

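The authors deposited 1 table of raw counts per gene for all 18 libraries, whole numbers that are not normalized. Per the submitters' processing notes, the tools named for making the counts were CASAVA 1.8.2, TopHat2 2.0.13, Picard 1.97 and featureCounts from Subread 1.6.4, on GRCh38; no order, strand setting or handling of reads with several matches is given in the sources used here. Per the labels' protocols, RNA was taken with Trizol and columns, and libraries were made with an exome capture kit. Each column was tied to its sample by name.

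Counts were tested in R 4.3.3 with edgeR 4.0.16: genes passed filterByExpr (minimum count 10, minimum total 15), libraries were scaled by TMM, and 1 quasi-likelihood fit with a mean for each of 6 groups gave the 11 contrasts, with Benjamini-Hochberg adjustment over 15185 genes and a threshold of 0.05. The labels call the replicates biological; nothing more is given of their source, so the p-values measure the spread between these samples. The total count of a library, 10930204 to 14819879, limits the precision of low genes such as CDKN1C. RPKM used the merged exon length of GENCODE 29, which matched 57433 of 58037 gene IDs, and promoter windows came from RefSeq (GRCh38.p14). Alternatives were RLE scaling, no filter, a filter of 1 CPM in 3 libraries, DESeq2 1.42.0, limma-voom (limma 3.58.1), a fit to the compared groups alone, the replicate number as a block, a GC correction, both together, a threshold of 0.01, and leaving out libraries.

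Same-numbered libraries deviated together: every pair's correlation of deviations from the group means was over 0.1 in 8 of the 11 comparisons. There the block, which the fit as reported leaves out, is given beside results whose call it changed. Not every pair was over 0.1 in E2F2 against control siRNA with R1881 (lowest 0.0819), E2F2 against E2F1 siRNA with R1881 (0.0911) and the difference of R1881 responses for E2F2 siRNA (0.0819). All 9 genes are named in the text; of each pathway list, the called genes with the smallest p (up to 4 a comparison) and direct regulators (FOXM1, FOXO1, FOXO3, DTL, CDK2, CDK4 and G1 cyclins), and the 3 genes of most like pattern per member. A regulator and 1 pathway list are not reported here. Members and lists were chosen with earlier results of these data known.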

Additional observations from a re-analysis of the deposited data

How the results depend on the processing

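Over 11 comparisons of 9 genes, 43 results were called, and 33 of these kept their call and direction in every alternative run; 10 lost the call in some, and 0 of the called ones changed sign. Of the 56 that were not called, 18 were called in some alternative and 10 changed sign in some. With the threshold at 0.01, E2F1 siRNA against control siRNA had 2 of 9 genes called in R1881 and 1 in vehicle. Of all 15185 genes tested, 714 and 354 were called there. The fit to those groups alone had 0 in vehicle, where it called 17 of 14233 genes tested and CDKN1C was not among those tested. With the replicate block, 2 genes (CDKN1A and CDKN1C) were called for R1881 with E2F1 siRNA, 2 for the difference of R1881 responses with E2F1 siRNA, and 1 for that with E2F2 siRNA (CDKN1A, adjusted p = 0.0167, where same-numbered libraries did not all deviate together). The block alone changed no other call than these and those given beside CDKN1C, CDKN2B and CDKN2C. The GC correction gave 3, 3 and 1 in the same comparisons, and block and GC correction together 3, 4 and 1. In these comparisons 4661, 696 and 658 of all 15185 genes were called with the block, beside 3009, 104 and 135 as reported. The GC correction called 5312, 1294 and 1104 of all genes, and both together 6346, 2246 and 2010. Block and GC correction together also called CDKN1B with E2F2 siRNA in R1881 (-0.20, adjusted p = 0.0448), where the pairs did not all deviate together. DESeq2, without an adjusted p for CDKN1C, gave 2 for the difference with E2F1 siRNA, beside 2.73% of the genes to which it gave one. Leaving out libraries, the number of genes called ranged over 2 to 5 (E2F1 against control siRNA, R1881), 1 to 3 (vehicle), 6 to 7 (E2F2 against control siRNA, R1881), 6 to 6 (vehicle), 5 to 6 (E2F2 against E2F1 siRNA, R1881), 7 to 8 (vehicle), 0 to 2 and 0 to 3 (differences of R1881 responses, E2F2 and E2F1 siRNA), 4 to 5, 1 to 1 and 5 to 7 (R1881 with E2F2, E2F1 and control siRNA). Without replicate 3, those differences of responses had 1767 and 1844 of all 15225 genes tested called. Signs changed for CDKN2A with R1881 and control siRNA (0.012 with no filter, 0.030 with the replicate block, 0.081 with the GC correction, 0.082 with both, 0.046 by limma-voom), CDKN2D with E2F2 siRNA in vehicle (0.11 with the GC correction, alone or with the block), CDKN1B in the difference of responses with E2F1 siRNA (-0.014 with no filter) and CDKN1C in that with E2F2 siRNA (-0.030 by limma-voom). Leaving out libraries, sign changes gave ranges of -0.20 to 0.33 for CDKN2A with R1881 and control siRNA, -0.020 to 0.51 for CDKN2A and -0.21 to 0.095 for CDKN2B with E2F1 siRNA in vehicle, -0.77 to 0.21 for CDKN1C with E2F1 siRNA in R1881, -0.22 to 0.077 for CDKN2D with E2F2 siRNA in vehicle and -0.090 to 0.030 for SKP2 with R1881 and E2F1 siRNA. For differences of responses they were -0.045 to 0.15 (CDKN1A) and -0.12 to 0.077 (CDKN1B) with E2F1 siRNA, and -0.11 to 0.043 (CDKN1B) and -0.42 to 0.51 (CDKN1C) with E2F2 siRNA. The cause was not tested. Over all genes the calls ranged over 2971 to 8324 (reported 4601) with E2F2 siRNA in R1881, 1793 to 7711 (reported 4145) in vehicle, 714 to 4856 (reported 1418) with E2F1 siRNA in R1881, 17 to 3600 (reported 802) in vehicle, 2128 to 7560 (reported 3648) and 2961 to 8250 (reported 4641) between the pools in R1881 and vehicle, 2358 to 7130 (reported 3465), 1977 to 6346 (reported 3009) and 1842 to 7995 (reported 4105) for R1881 with E2F2, E2F1 and control siRNA, and 37 to 2010 (reported 135) and 21 to 2246 (reported 104) for the differences with E2F2 and E2F1 siRNA; block and GC correction together gave the highest each time. Where 1 library was left out, the group of 2 was assumed to vary like the others. Depth limits CDKN1C.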
